A study of Mus musculus with 5 samples.

Results

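Initiation zones, stretches of the genome in which DNA replication starts, were examined at the 4 Hox clusters of mouse embryonic stem cells. The members are the zones of the authors' deposited list that overlap chromosome 6 from 52100001 to 52220000 (Hoxa), chromosome 11 from 96050001 to 96235000 (Hoxb), chromosome 15 from 102750001 to 102870000 (Hoxc) and chromosome 2 from 74490001 to 74610000 (Hoxd), all in build mm9. Of the 35512 zones in the list, 42 met this rule: 10 at Hoxa, 11 at Hoxb, 8 at Hoxc and 13 at Hoxd. The rule uses position alone, so it set no limit on the widths, the spacing or the number of zones. The clusters themselves were chosen with earlier results of these data known.

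The list pools 3 nascent strand samples from separate cultures of CGR8, a mouse embryonic stem cell line grown in serum with leukaemia inhibitory factor and no feeder cells. Nascent strands are the short new DNA strands, here of 0.5 to 2 kb, that leave an origin; their RNA primer protects them from lambda exonuclease, which removes other DNA. The 2 control samples, 1 of sonicated genomic DNA digested with the same enzyme and 1 in which RNase A had removed the primers, were also of CGR8 cells, and no control value was analysed here. Apart from these steps in preparing the DNA, no treatment or genotype separates the groups. The list holds a position for each zone and neither a read count nor a value per culture, so the depth behind a zone and the spread between cultures are unknown. No test between groups of samples was therefore possible, and the intervals given with zone numbers are exact Poisson or binomial intervals that cover counting error only.

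Hox genes encode homeodomain transcription factors that give cells along the head-to-tail axis their regional identity. In each cluster the genes stand in the order in which they act along that axis, with anterior genes of low paralogue number at one end and posterior genes of high number at the other. In embryonic stem cells the clusters are known as largely silent domains held by Polycomb proteins, with the repressive mark H3K27me3 over the whole domain and H3K4me3 at many promoters. Mouse replication origins are known to be frequent at CpG islands and near G-rich sequences that can fold into G-quadruplexes. Neither expression nor chromatin was measured in the list analysed here.

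The 38 Hox genes of the member list were all found in the RefSeq gene table of build GRCm38.p6, from which only their order was taken. With increasing position, Hoxa runs from Hoxa2 to Hoxa13, between Skap2 below and Evx1 above. The other clusters run the other way, from the posterior end: Hoxb from Hoxb13 to Hoxb1 (between Ttll6 and Skap1), Hoxc from Hoxc13 to Hoxc4 (between Calcoco1 and Smug1), and Hoxd from Hoxd13 to Hoxd1 (between Evx2 and Mtx2). No annotation of mm9 was used, so no zone is assigned to an exon, an intron or a start site.

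RefSeq promoters were matched by symbol for 22 of the 38 genes (24 promoters, GRCm38.p6), and the 250 bases before each start were read. Only Hoxb1, Hoxb4 and Hoxb8 were matched at Hoxb and only Hoxc4 at Hoxc, so the values below describe mainly Hoxa and Hoxd. Most of the matched Hox promoters held more CpG than the median promoter of the table. Their median was 12.5 CpG dinucleotides, against 6 over the 32851 promoters of the table. The upper quartile over all promoters was 16, above the Hox median. Of the 24, 19 exceeded the median of 6, as did 46.3% of all promoters. The 24 ranged from 2 to 35. The median GC content was 58.6%, against 52.4% over all promoters. A pattern that can fold into a G-quadruplex, here 4 runs of at least 3 G with spacers of 1 to 7 bases of any kind, searched on both strands, was found in 6 of the 24 (25%), against 16.7% of all promoters. The sequences below show this range, printed in the direction of transcription with each CG in capitals. The promoters of Hoxa13 and Hoxd13, posterior genes that pattern limb tips and the end of the trunk, held the most CpG (35 and 31) and the pattern. A promoter of Hoxd11, a posterior gene of limb and kidney, held the fewest (2) and not the pattern. The other Hoxd11 promoter, not printed, held 20 CpG and not the pattern, so the low value belongs to that promoter and not to the gene. Hoxa13 lies on the minus strand and the others on the plus strand. Whether a zone covers any of these promoters was not analysed here.
Hoxa13: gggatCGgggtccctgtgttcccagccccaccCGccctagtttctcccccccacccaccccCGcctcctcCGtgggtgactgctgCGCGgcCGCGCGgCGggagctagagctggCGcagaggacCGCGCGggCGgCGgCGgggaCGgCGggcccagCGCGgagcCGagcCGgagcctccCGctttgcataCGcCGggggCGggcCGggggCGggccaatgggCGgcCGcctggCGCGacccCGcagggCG
Hoxd13: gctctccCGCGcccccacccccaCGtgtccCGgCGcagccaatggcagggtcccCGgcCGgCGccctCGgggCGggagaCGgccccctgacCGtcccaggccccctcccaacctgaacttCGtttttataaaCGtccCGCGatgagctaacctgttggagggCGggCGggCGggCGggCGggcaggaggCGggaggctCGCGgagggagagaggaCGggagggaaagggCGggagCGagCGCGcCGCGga
Hoxd11: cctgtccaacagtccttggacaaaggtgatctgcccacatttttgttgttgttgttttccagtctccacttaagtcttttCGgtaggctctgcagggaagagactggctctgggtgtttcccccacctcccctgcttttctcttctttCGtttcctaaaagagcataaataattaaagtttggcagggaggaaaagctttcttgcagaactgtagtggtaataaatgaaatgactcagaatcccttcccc

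The first question was how much of the clusters zones take up. Zones covered 244.6 kb of the 545 kb in the 4 clusters, or 44.9%, against 5.77% of the autosomes from first to last zone. Hoxa was the most covered, with 69.4 of 120 kb (57.8%), followed by Hoxd with 58.0 of 120 kb (48.3%), Hoxc with 51.2 of 120 kb (42.7%) and Hoxb with 66.0 of 185 kb (35.7%). The order by number was another one. Hoxd carried 108.3 zones per Mb (95% interval 57.7 to 185.3), Hoxa 83.3 (39.96 to 153.3), Hoxc 66.7 (28.8 to 131.4) and Hoxb 59.5 (29.7 to 106.4). These intervals overlap throughout, so counting error does not let the clusters be put in order by zone number. Each cluster lay above its own chromosome: zones were 6.75 times as dense at Hoxa as on chromosome 6, 6.88 times at Hoxd as on chromosome 2, 4.52 times at Hoxc as on chromosome 15 and 2.65 times at Hoxb as on chromosome 11, the chromosome with the highest density of these 4 at 22.4 zones per Mb.

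**Figure D1:**
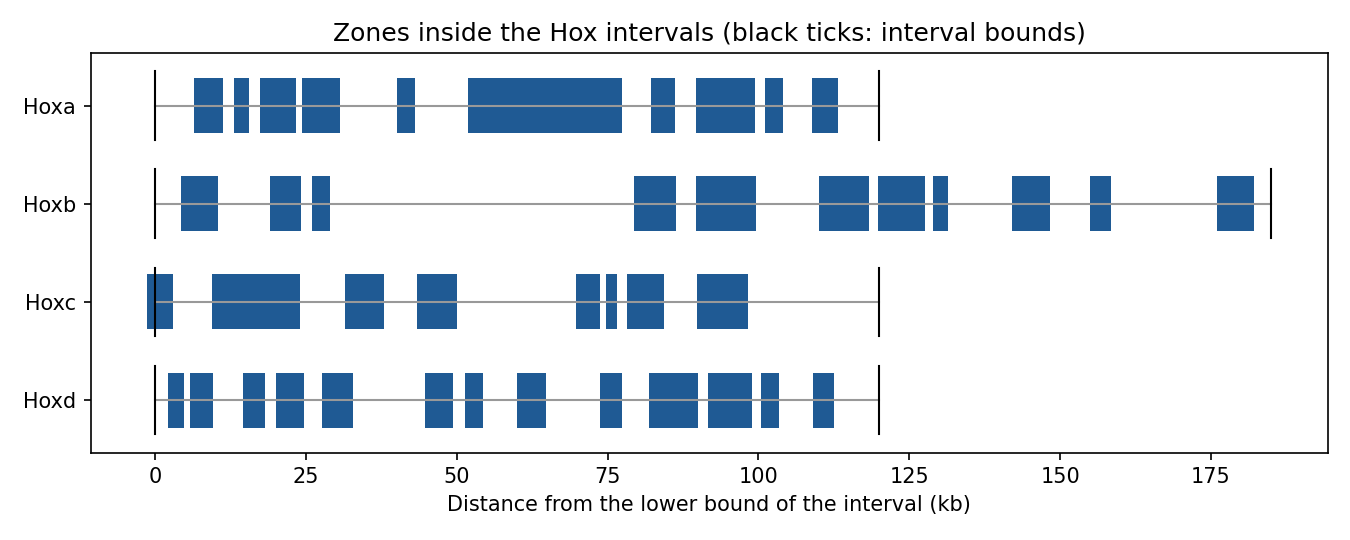
Positions of the 42 zones (blue) inside the Hox intervals, in kb from the lower bound of each interval; black ticks mark the interval bounds. Hoxa holds the widest zone (25.6 kb), Hoxb the longest empty stretch (50.4 kb), and Hoxc a zone across its lower bound.

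Hoxa, which patterns the hindbrain, limbs and reproductive tract among other tissues, was the cluster in which zones came closest to forming a continuous domain. Its first zone lay from 52106401 to 52111200 and its last from 52208801 to 52213200. The widest, from 52151801 to 52177400, spanned 25.6 kb, a width reached by 0.61% of autosomal zones, and the next were 9.8 kb (52189601 to 52199400) and 6.2 kb (52124401 to 52130600). No distance between neighbouring zones exceeded 9.4 kb (52130601 to 52140000). The widest zone alone made up 36.9% of the covered length at Hoxa. Without it zones would cover 36.5% of the interval, 1.58 times less. With the widest zone of each other cluster left out in the same way, the share was 41.5% at Hoxd, 30.5% at Hoxc and 30.3% at Hoxb. On that measure Hoxa stood below Hoxd and above Hoxc and Hoxb.

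Hoxd, which shapes the digits and forearm, had the most zones and the narrowest range of widths. Its 13 zones measured 2.6 to 8.2 kb, with a median of 3800 bp, and none reached 10 kb. The widest lay from 74571801 to 74580000, the next from 74581601 to 74589000 (7.4 kb) and from 74517601 to 74522800 (5.2 kb). The first zone ran from 74492201 to 74494800 and the last from 74599001 to 74602600. The longest distance between neighbours was 12 kb (74522801 to 74534800), and 4 of the 12 distances were under 2 kb.

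Hoxc, with genes from Hoxc4 to Hoxc13 and no anterior ones, had 8 zones. The first, from 102748601 to 102753000, crossed the lower bound of the interval and counted only with the part inside it towards the covered length. The second was the widest, with 14.6 kb (102759401 to 102774000). It was followed by zones of 6.6 kb each at 102781401 to 102788000 and at 102793401 to 102800000. After a stretch of 19.8 kb without a zone (102800001 to 102819800) came a close group of 4.0 kb (102819801 to 102823800), 1.8 kb (102824801 to 102826600) and 6.2 kb (102828201 to 102834400), separated by 1 and 1.6 kb. The last zone covered 8.4 kb (102839801 to 102848200) and left the top 21.8 kb of the interval empty. The 1.8 kb zone was the narrowest of all 42.

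Hoxb, the cluster with genes of every paralogue number from 1 to 9 and Hoxb13, was split by the longest empty stretch of the 4 clusters, 50.4 kb from 96079001 to 96129400. In mouse, Hoxb13 is known to stand apart from the rest of its cluster, and it is the gene at the lower end. Below the empty stretch lay 3 zones in 29 kb, the first from 96054201 to 96060400, which covered 49.7% of that part. Above it lay 8 zones in 105.6 kb, which covered 48.9%. The widest were 10 kb (96139601 to 96149600), 8.4 kb (96160001 to 96168400) and 7.8 kb (96169801 to 96177600), and the last zone ran from 96226001 to 96232200. With the longest empty stretch between zones left out of each cluster, a comparison chosen after seeing the values, the covered share was 49.0% at Hoxb, 51.1% at Hoxc, 53.7% at Hoxd and 62.7% at Hoxa.

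Position along the clusters was compared by cutting each interval into 3 parts of equal length, by coordinate. At Hoxa the middle part was the most covered, with 71.5% against 49.0% in the lower and 53.0% in the upper part. At Hoxb it was also the middle (46.9%, against 23.4% and 36.8%). At Hoxc it was the lower part (60.5%, against 35.5% and 32.0%), and at Hoxd the upper part (55.5%, against 49.5% in the lower and 40% in the middle). The lower part holds the posterior end at Hoxb, Hoxc and Hoxd and the anterior end at Hoxa, so no end of the axis was the most covered in all 4 clusters. A part holds few zones, and no error could be given for these shares.

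The second question was whether zones are as dense in the 500 kb on each side. The flanks of Hoxa and Hoxd held fewer zones than those of Hoxb and Hoxc. Against its chromosome, Hoxa did not have flanks sparse in zone number, with 14 zones per Mb against 12.3 on chromosome 6. Their covered share was 3.24%, against 4.16% there. The Hoxd flanks had 7 zones per Mb, against 15.8 on chromosome 2. The Hoxb flanks had 40 against 22.4 on chromosome 11, and the Hoxc flanks 34 against 14.7 on chromosome 15. At Hoxd the lower flank had 2 zones (3.6 kb, 0.72% covered) and the upper 5 (10.8 kb, 2.16%), against 13 zones and 48.3% in the cluster. At Hoxa the lower flank had 5 zones (10.6 kb, 2.12%) and the upper 9 (21.8 kb, 4.36%), against 10 zones and 57.8%. Zone density was thus 15.5 times that of the flanks at Hoxd (95% interval 5.74 to 45.8) and 5.95 times at Hoxa (2.37 to 14.4). Both intervals lie above 1, so these differences exceed counting error.

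At Hoxb and Hoxc the number of zones did not exceed that of the flanks beyond counting error. The Hoxb flanks held 26 zones below (20.9% covered) and 14 above (8.36%), and the density ratio was 1.49 (0.69 to 2.95). The Hoxc flanks held 13 zones below (11.2%) and 21 above (21.1%), and the ratio was 1.96 (0.78 to 4.32). Covered length was still higher inside: 35.7% at Hoxb against 14.6% in its flanks, 2.44 times as much, and 42.7% at Hoxc against 16.2%, 2.64 times as much. The same ratio was 17.8 at Hoxa and 33.6 at Hoxd. Pooled over the 4 clusters, the ratio of zone density to the flanks was 3.25 (2.20 to 4.71, 42 against 95 zones) and that of covered share 5.06. The pooled interval covers counting error only and not the spread between clusters, whose density ratios ran from 1.49 to 15.5. No single cluster had a density ratio inside it. With flanks of 1 Mb in place of 500 kb the ratio of covered share at Hoxb was 1.50, and at Hoxd 22.2.

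**Figure D2:**
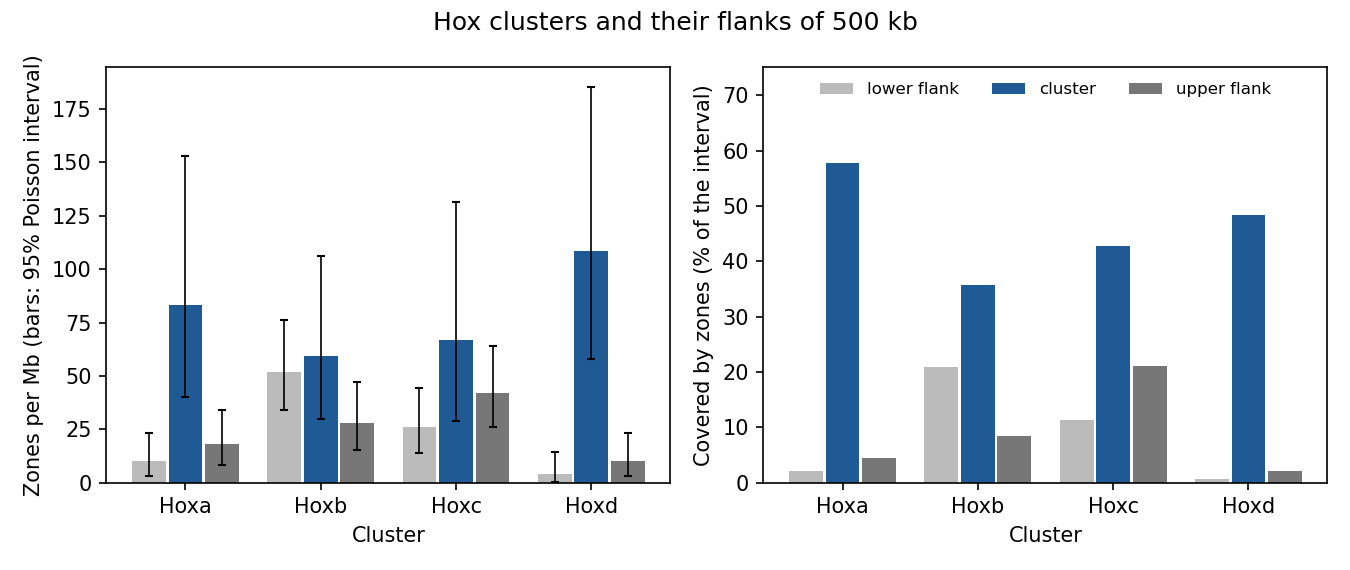
Zones per Mb (left; error bars, 95% exact Poisson interval) and percentage of the interval covered by zones (right) in each Hox cluster and in its lower and upper flank of 500 kb. The Hoxa and Hoxd bars stand far above their flanks in both panels; at Hoxb and Hoxc the Poisson intervals overlap those of the flanks.

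Next, the distance from the outermost zone of a cluster to the next zone outside was read. Below Hoxd the next zone was 424 kb away, and the 4 steps of 100 kb nearest to the cluster on that side held none. Above Hoxd the next zone was 59.4 kb away. The nearest outside zones were 66.0 kb below and 48.8 kb above Hoxa, 119.4 kb below and 67.4 kb above Hoxc, and 30.0 kb below Hoxb. The upper edge of Hoxb was the exception, with the next zone at 6.2 kb. Coverage in the first 100 kb beyond the bounds was 0.60% and 7.60% at Hoxa, 14.8% and 4.40% at Hoxb, 1.40% and 16.2% at Hoxc, and 0 and 2.80% at Hoxd, below and above in each case. The 1.40% below Hoxc is the outer part of the zone that crosses its bound. All 8 values lay below that of the cluster itself.

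**Figure D3:**
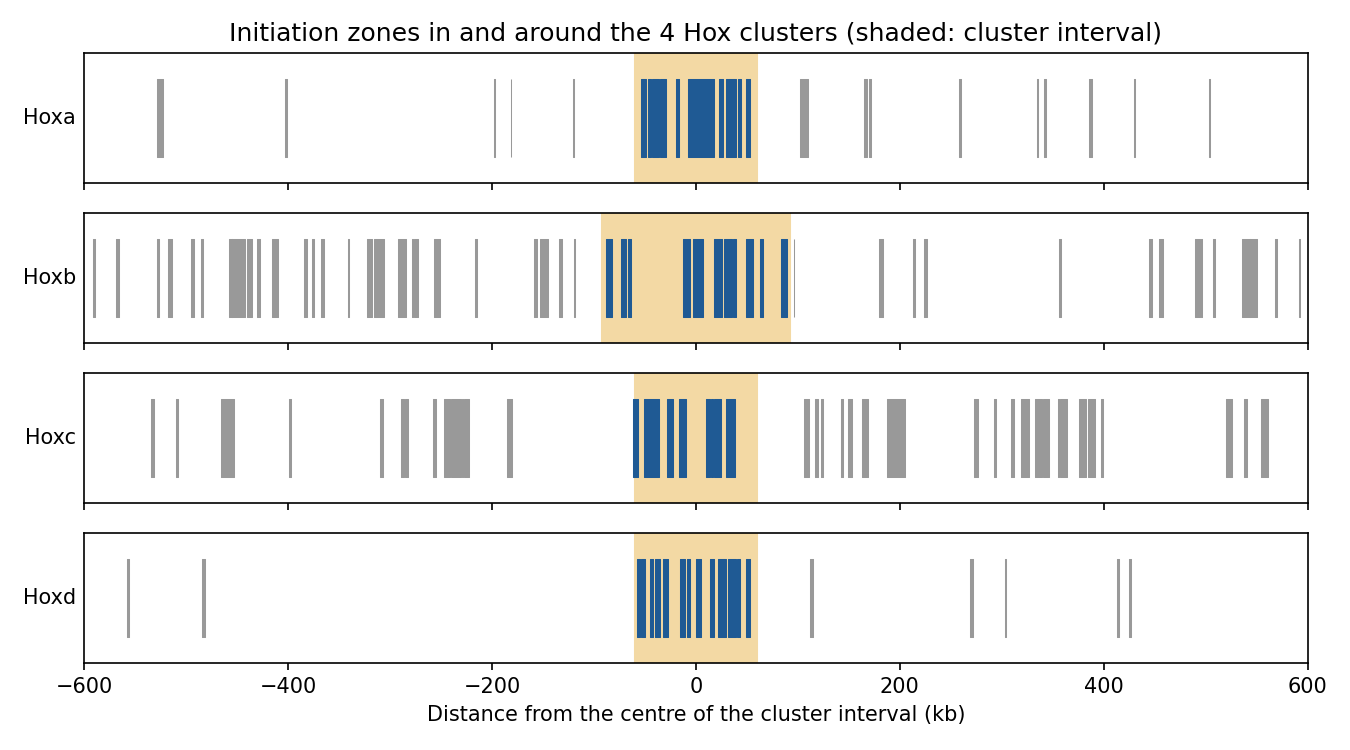
Zones within 500 kb of each Hox interval, in kb from the centre of the interval; shading marks the interval, blue bars are the 42 member zones and grey bars other zones, and zones very close to each other merge at this scale. Around Hoxa and Hoxd the grey bars are few (14 and 7 zones), around Hoxb and Hoxc many (40 and 34).

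The widest zone in a flank was 7.6 kb at Hoxa (52262001 to 52269600, above), 12.8 kb at Hoxb (95687801 to 95700600, below), 17.2 kb at Hoxc (102997601 to 103014800, above) and 3.0 kb at Hoxd (74818601 to 74821600, above). On the other sides the widest were 5.6 kb below Hoxa (51631401 to 51637000), 7.4 kb above Hoxb (96678201 to 96685600), 12.6 kb below Hoxc (102344401 to 102357000) and 2.4 kb below Hoxd (74065801 to 74068200). The widest zone of the cluster exceeded those of both flanks at Hoxa and Hoxd, and that of 1 flank at Hoxb and Hoxc.

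Intervals of the same length were then shifted along each chromosome in steps of 10 kb, leaving out those that touch the cluster. They overlap and are not replicates, so the shares below describe where a cluster stands and are not p-values. At Hoxa, 23 of 14600 intervals on chromosome 6 (0.16%) were covered as much or more, and they formed 7 separate stretches. At Hoxd, 369 of 17833 on chromosome 2 (2.07%) were, at Hoxc 472 of 9987 on chromosome 15 (4.73%), and at Hoxb 1034 of 11820 on chromosome 11 (8.75%). Over all autosomes the shares were 0.82% for Hoxa, 1.66% for Hoxd, 2.39% for Hoxc and 3.21% for Hoxb, so that of Hoxa was higher than on its own chromosome and the others lower. The median interval was 1.17%, 1.67%, 1.33% and 5.08% covered on these chromosomes in the same order. The most covered interval elsewhere reached 67.3% on chromosome 6 (115850001 to 115970000) and 86.1% on chromosome 11 (115040001 to 115225000).

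By number, Hoxd stood highest. None of the 17833 other intervals on chromosome 2 held 13 zones, the highest having 12, and over all autosomes 100 of 240734 did (0.042%). Hoxa's 10 zones were reached by 0.26% of intervals on its chromosome, Hoxc's 8 by 3.63% and Hoxb's 11 by 6.04%; over all autosomes these shares were 0.58%, 2.50% and 2.81%. Among intervals within 5 Mb of the cluster, 25.2% were covered as much as Hoxb and 15.9% as much as Hoxc. For Hoxa that share was 0.31% (3 of 978 intervals), and for Hoxd none of 978 intervals reached its 48.3%.

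The step between a cluster and its own surroundings was measured in the same way, as covered share minus that of the flanks of 500 kb, a measure added after seeing the data. It was 54.6 percentage points at Hoxa, 46.9 at Hoxd, 26.5 at Hoxc and 21.0 at Hoxb. A step as large was found in 6 of 14500 intervals on chromosome 6 (0.041%), 21 of 17733 on chromosome 2 (0.12%), 188 of 9898 on chromosome 15 (1.90%) and 488 of 11720 on chromosome 11 (4.16%). The median step elsewhere lay between -0.42 and -0.30 points.

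**Figure D4:**
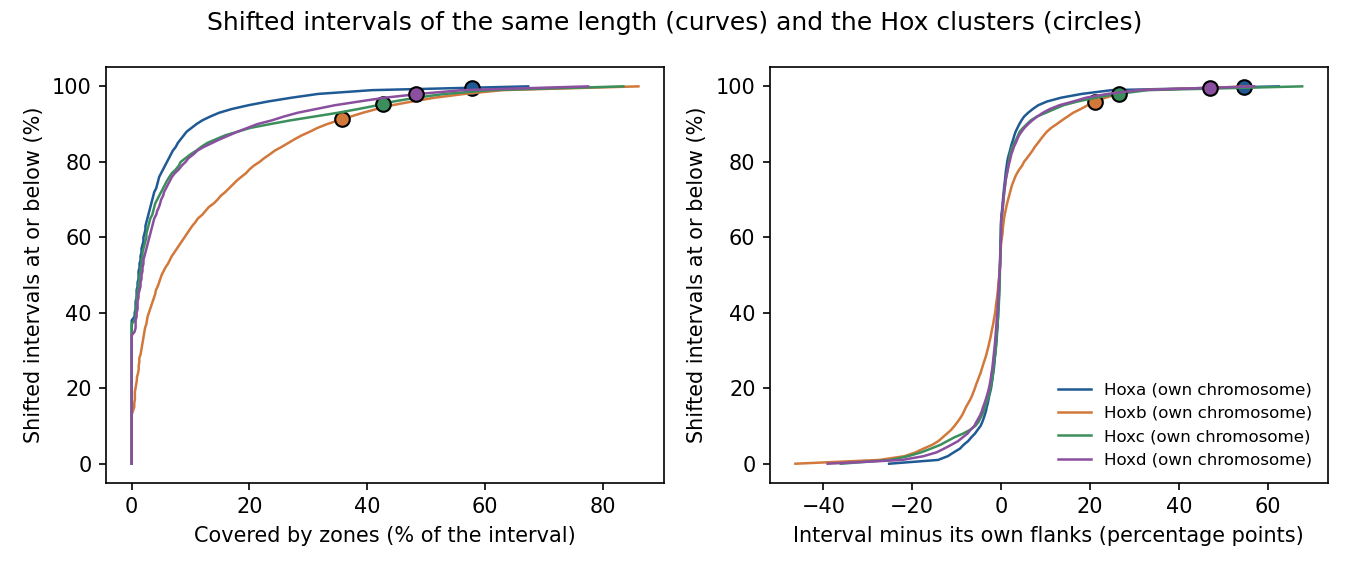
Cumulative share of shifted intervals of the cluster's length on its own chromosome (curves) against the share covered by zones (left) and against that share minus the share in the flanks of 500 kb, in percentage points (right); circles mark the Hox clusters. Hoxa and Hoxd stand at the far right of the curves in the right panel, at 54.6 and 46.9 points.

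The zones of the clusters were then compared with other zones by width. The median over the 42 was 4800 bp (quartiles 3600 and 6600 bp), against 2600 bp over the 35138 autosomal zones (quartiles 1600 and 4600 bp) and 2800 bp over the 95 zones of the flanks. Medians per cluster were 6400 bp at Hoxc, 6200 bp at Hoxb, 4600 bp at Hoxa and 3800 bp at Hoxd, all above the autosomal one. Of the 42 zones 38 were wider than 2600 bp, as were 47.5% of autosomal zones and 48 of the 95 flank zones. At the autosomal upper quartile of 4600 bp or beyond lay 24 of the 42, against 26.2% of autosomal zones. At 10 kb or more were 3 of the 42 (7.14%), 1 each at Hoxa, Hoxb and Hoxc, against 7.41% of autosomal zones, and under 1 kb there was none, against 7.69%.

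**Figure D5:**
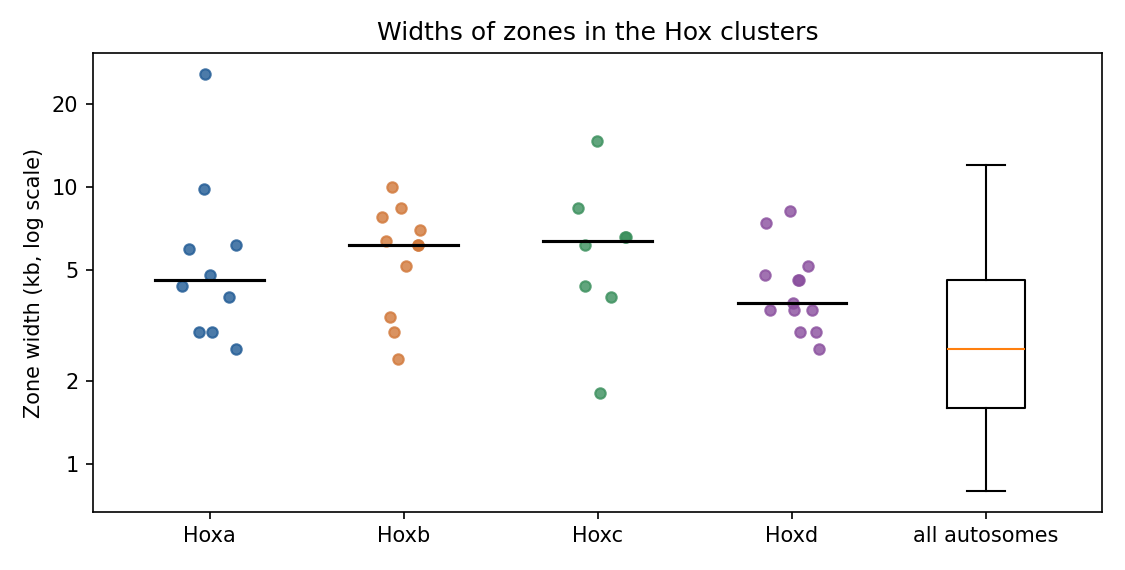
Width of each zone (points, kb on a log scale) in the 4 Hox clusters with the median (black line), beside all autosomal zones (box, quartiles and median; whiskers, 5th and 95th percentiles, 0.8 and 12 kb). Most Hox zones lie above the autosomal median of 2.6 kb, and few lie above 10 kb.

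Zones of the clusters also lay close together. All 42 had another zone within 10 kb, against 46.6% of autosomal zones. The median of the 38 distances between neighbours inside a cluster was 4800 bp, against 24400 bp over the autosomes. Of these distances 32 were 10 kb or less and 13 were under 2 kb, against 30.2% and 9.84% of autosomal distances. The 38 leave out the distances to the next zone outside a cluster and cannot exceed the interval length. The autosomal set holds every distance, so the comparison favours short distances inside the clusters. Per cluster the median distance was 3400 bp at Hoxa, 3700 bp at Hoxd, 5400 bp at Hoxc and 7600 bp at Hoxb. The shortest was 1 kb, at Hoxa, Hoxc and Hoxd. No pair of zones in the whole list lies closer than 800 bp, so signal split by a shorter distance would be listed as 1 zone, and number and covered length have to be read together.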

How the data were processed

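The authors deposited 1 list of initiation zones that combines the 3 nascent strand samples, as the series' design text states. Its values are chromosome, start and end in bp, without score or strand. Build mm9 and the tools CASAVA 1.8 and SICER come from the submitters' processing notes. Tool settings, and the part the controls played, are not given in the sources used here. Starts and widths of all 35512 zones fall on a grid of 200 bp, with the end position included. Positions are printed counting from 1.

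Zones touching an interval were counted, and covered length was limited to the interval; flank numbers leave out zones counted in the cluster. Shifted intervals lay between the first and last zone of the chromosome. Zone numbers have exact Poisson intervals and density ratios exact binomial ones (95%, counting error only). Interval sums were checked on 20 simulated lists, where 0 of 12020 values differed from a count base by base. Python 3.11.15, numpy 2.4.6, scipy 1.17.1, pandas 2.3.3 and matplotlib 3.10.9 were used.

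Zones were named by rule: all in a cluster with 8 or fewer, otherwise the first, the last, the 3 widest and any across a bound, with the longest empty stretch and the widest zone of each flank. The clusters and lists were chosen with earlier results of these data known. Alternatives were other flanks, bounds, assignments, width limits and sets of shifted intervals.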

Additional observations from a re-analysis of the deposited data

How the results depend on the processing

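Of 30 recomputed values over the 4 clusters together, 11 moved by more than a nominal tolerance and follow; 8 were equal to the value reported. The tolerance was a 95% binomial or Poisson interval that counts 200 bp bins or overlapping shifted intervals as independent, which they are not, so it sorts values and is no error. No recomputed ratio of covered share to the flanks fell below 1, for the clusters together or singly. The ratio of zone density was not recomputed. Bounds moved outward by 10 kb, which adds sequence with few zones, gave a covered share of 39.5% in place of 44.9%, a ratio of covered share to the flanks of 4.35 in place of 5.06, and a share of shifted intervals at or above the clusters of 4.49% in place of 3.50%. Bounds moved inward gave 3.74% for that last share. The ratio of covered share was 5.37 with flanks of 250 kb and 3.79 with flanks of 1 Mb. The share of shifted intervals was 3.02% for intervals that do not overlap, 2.02% over all autosomes and 9.57% within 5 Mb; it was 2.06% by number of zones and 1.31% by difference from the own flanks, both added after seeing the data. For single clusters the ratio of covered share to the flanks ran from 13.5 to 18.7 at Hoxa and from 1.50 to 2.96 at Hoxb. It ran from 2.33 to 2.98 at Hoxc and from 22.1 to 33.6 at Hoxd. The settings tried for width could not change it, since no cluster zone is under 1 kb, none lies under 1 kb from the next, and every midpoint lies inside its cluster. No paired analysis was possible because 1 pooled list stands for all replicates, which also prevents leaving out a replicate. Depth is unknown, so zones below the threshold of the caller cannot be bounded.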
